A study of Mus musculus with 18 samples.

Results

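Mitochondria make a small set of their own proteins, and these data hold both sides of that system. The first is the 78 nuclear genes named Mrpl or Mrps with a number, which encode proteins of the mitochondrial ribosome (mitoribosome). The second is the 13 protein genes of mitochondrial DNA, whose messages that ribosome translates. Of the 35642 genes in the expression table, these 91 were taken by symbol alone, without regard to their values; 49 were Mrpl genes, 29 were Mrps genes, and 6 symbols marked as pseudogenes were left out.

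The mitoribosome has a small subunit, which holds the message and the decoding site, and a large subunit, which joins amino acids. Its proteins are made in the cytosol from nuclear messages and imported, while its ribosomal RNAs are transcribed inside the organelle. The 13 mitochondrial messages are cut from long transcripts of both strands of a circular genome, and each encodes a membrane subunit of respiratory complex I, III, IV or V. The Mrps and Mrpl names follow the subunits with exceptions: Mrps30 and Mrps18a are large-subunit proteins in the structure, and Mrps36 is a subunit of the oxoglutarate dehydrogenase complex.

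RNA was measured in cultured, untreated mouse pancreatic tumour cells of lines 1151 and 2838, with 18 libraries in 6 groups of 3. The study altered Mcu, which encodes the pore of the mitochondrial calcium uniporter, in lines from KPCY mice. Such mice carry the KrasLSL-G12D/+ allele, Trp53LSL-R172H/+, Pdx1-Cre (recombinase active in pancreatic epithelium) and a yellow fluorescent protein reporter, R26LSL-Yfp/LSL-Yfp. Cells of line 1151 came from a tumour with floxed Mcu alleles, lost through Cre, and received either an empty vector (labelled knockout) or a vector for re-expression of MCU; both were kept in puromycin at 2 µg per mL. Line 2838 was edited with CRISPR, and gave knockout clones 17 and 42 and wild-type clones 15 and 22. An empty vector is labelled for the wild-type clones and no vector for the knockout clones. Each 2838 group is 1 clone. Whether the 3 libraries of each group were grown apart is not labelled. Each test on single libraries therefore measures the spread between them, which may be technical. Tests on 1 mean per clone or group rest instead on the spread between the 2838 clones. Line 1151 was batch 1 and line 2838 batch 2, so line and batch cannot be told apart.

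Mcu RNA did not follow the labels everywhere. It was 15.0 ± 1.63 TPM (TPM is a level per transcript length, scaled to the library; mean ± SD, n = 3) in labelled knockout 1151 cells and 14.3 ± 1.06 in re-expressing cells, with an adjusted p of 0.581 by limma. In 2838 it was 75.2 ± 6.44 in clone 15, 83.3 ± 20.8 in clone 22, 11.4 ± 0.888 in clone 42 and 119 ± 4.79 in clone 17, the highest of the 4. RNA of an edited gene can persist, and reads of an introduced MCU transcript may fall outside the mouse gene, so RNA checks the labels only in part. In clone 17 the labelled knockout therefore rests on the label alone, and clones are named by number here. Of 9 ductal epithelial markers, 7 reached 1 TPM in every group. Epcam and Cldn4 did not, with means of at most 0.42 and 0.72 TPM in the 2838 clones. Another 4 cell-type lists summed to 29.3 TPM or less in any library. Of these, Cpa1, Amy2a5, Ptf1a, Lum, Col1a2, Cd3e and Emcn were at 0 throughout. Others were detected: mean Cela1 reached 24.2 TPM in clone 15 and Cd68 5.71 TPM in clone 42. Mean Kdr was 8.51 TPM in labelled knockout 1151 cells and Cdh5 4.93 TPM in re-expressing cells. A pair of libraries stood apart in the values described here: replicate 1 of clone 15 and replicate 3 of clone 22.

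All 91 genes reached 1 TPM in at least 3 libraries and entered each test. Mean levels of the 78 mitoribosomal genes over the 18 libraries ran from 10.1 to 509 TPM with a median of 69.5. The highest were Mrpl52 (509 TPM), Mrps21 (351 TPM) and Mrpl33 (218 TPM). The lowest were Mrpl23 (10.1 TPM), Mrpl1 (17.6 TPM) and Mrps30 (19.7 TPM). Summed over the 78 genes, the level lay between 5216 TPM in clone 15 replicate 1 and 8040 TPM in clone 22 replicate 3. That last library also had the highest sum for the cytosolic ribosomal proteins (233580 TPM) and the fewest genes at 1 TPM or more (10760, against 11507 in the library with most).

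Several mitochondrial messages share their letters with pieces of mitochondrial DNA inserted in the nuclear genome, which bears on how their values are read. On chromosome 1, between positions 24611535 and 24616197 (mm10, minus strand), the annotation lists 7 unprocessed pseudogenes in a row that copy mt-Nd4l, mt-Nd3, mt-Co3, mt-Atp6 and mt-Co2 over nearly their whole length, the first 876 of 1378 bases of mt-Nd4, and part of mt-Co1. Over the aligned length 5 of the 7 had no difference from their message; Gm28661 matched mt-Co2 in all 681 bases. The first 90 bases of both are shown because a read that lies within them matches both genes equally.
mt-Co2, chrM:7013-7102, plus strand: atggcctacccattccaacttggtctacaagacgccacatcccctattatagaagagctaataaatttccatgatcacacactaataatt
Gm28661, chr1:24615476-24615565, minus strand: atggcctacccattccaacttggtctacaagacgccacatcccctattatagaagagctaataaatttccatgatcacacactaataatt

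The copy of mt-Co1, Gm29216, covers the last 492 bases of the message, from base 1054, and differs only near its own start. In the next sequences, both read along the message, capitals mark the 6 differing bases, which are T1056A, C1057T, A1059G, A1060G, C1062A and A1066T (message base first, positions counted from 1 at the first base of mt-Co1).
mt-Co1, chrM:6381-6470, plus strand: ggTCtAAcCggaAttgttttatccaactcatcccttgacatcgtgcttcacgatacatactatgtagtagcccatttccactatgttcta
Gm29216, chr1:24616108-24616197, minus strand: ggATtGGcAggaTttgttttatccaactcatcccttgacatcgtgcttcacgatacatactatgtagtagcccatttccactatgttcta

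The copy of mt-Nd3, Gm28438, has 1 difference over 345 aligned bases, T3C, at the end of the start codon; it is in capitals.
mt-Nd3, chrM:9459-9518, plus strand: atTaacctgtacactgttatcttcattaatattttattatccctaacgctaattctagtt
Gm28438, chr1:24613060-24613119, minus strand: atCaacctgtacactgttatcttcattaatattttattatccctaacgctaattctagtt

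The deposited values split the signal of such pairs differently from library to library. Gm28661 was listed at 10232, 2307 and 3729 TPM in the clone 15 libraries, at 3060, 1397 and 560 TPM in clone 22, at 3181, 946 and 567 TPM in clone 17 and at 379, 518 and 1848 TPM in clone 42. In the 6 libraries of 1151 it did not pass 89 TPM. In clone 15 replicate 1 the copy held 71.7% of the signal of the pair. Beside it, mt-Co2 was 4021, 7970 and 7310 TPM in clone 15; with the copy added, weighted by its length relative to the message, the same libraries gave 14209, 10267 and 11022 TPM, which reverses the place of replicate 1 from the lowest to the highest. Gm10925, the copy of mt-Atp6, reached 6512 TPM in that library, 49.7% of its pair. Gm29216 was 5395 TPM there and 5913 TPM in clone 22 replicate 3, and 0 TPM in the 6 libraries of clones 17 and 42. The results for the mitochondrial messages below are therefore also given with each copy added to its message where this changes a call.

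**Figure D1:**
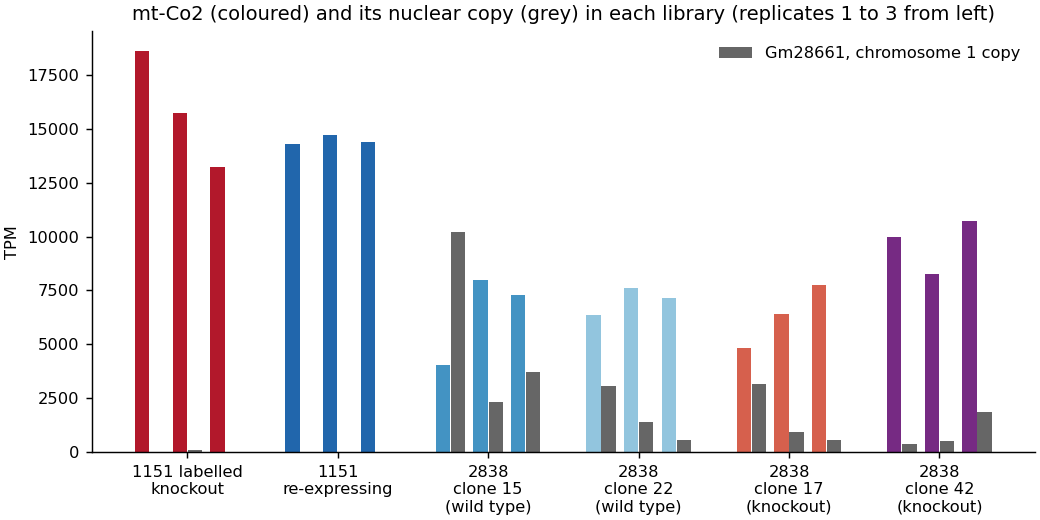
TPM of mt-Co2 and of its identical nuclear copy Gm28661 in each of the 18 libraries (bars, coloured for mt-Co2 and grey for the copy). The copy takes 10232 TPM in clone 15 replicate 1, where mt-Co2 itself is at 4021 TPM, and is at 0 to 89 TPM in line 1151.

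In line 1151, mitoribosomal genes moved in both directions between labelled knockout and re-expressing cells. Of the 78, 24 were higher and 17 lower in the labelled knockout, and 37 did not pass an adjusted p of 0.05 (limma on log2 of TPM plus 1, Benjamini-Hochberg over 11630 genes). Of all genes tested in this comparison 61.0% passed, 34.0% higher and 27.0% lower, so 41 of 78 is not above the genome-wide share. The median log2 change was 0.11 for the 78 genes and 0.05 for all genes. Among Mrpl genes 14 rose and 11 fell, and among Mrps genes 10 rose and 6 fell. The split moved with scaling: 17 higher and 21 lower after median-of-ratios scaling, and 18 and 21 after quantile normalization. In 48 of the 78 genes, among them all 41 called, the 3 libraries of 1 group lay wholly above those of the other. Calls and separation come from the same libraries, so this is no further support. The share of all genes with such separation is not given here.

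The largest rise was in Mrpl35, a large-subunit protein, on chromosome 6 (71812997 to 71826969, minus strand). Its level was 72.7, 80.3 and 48.3 TPM in the labelled knockout libraries and 24.2, 25.7 and 31.8 TPM in the re-expressing ones. The groups did not overlap, although replicate 3 of the knockout lay well under its fellows. The log2 change was 1.25 (SE 0.20, adjusted p = 0.00139).

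Mrpl11, a large-subunit protein of the stalk base, lies on chromosome 19 (4962147 to 4966999, plus strand). It was 128, 141 and 113 TPM in the labelled knockout and 69.6, 70.1 and 80.5 TPM after re-expression, a change of 0.79 (SE 0.10, adjusted p = 4.46e-04). Mrpl16 lies on the same chromosome. Its libraries read 90.4, 91.6 and 94.8 against 56.5, 52.4 and 52.6 TPM, a change of 0.77 (SE 0.05, adjusted p = 3.54e-05).

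Among small-subunit names, Mrps5 was 83.8, 98.5 and 56.4 TPM in the labelled knockout and 39.8, 36 and 49.4 TPM after re-expression (0.89, SE 0.21, adjusted p = 0.00902). Its lowest knockout library stood only a little above the highest re-expressing one. Mrps18b, of the small subunit, was 190, 210 and 186 against 120, 123 and 109 TPM (0.73, SE 0.07, adjusted p = 1.47e-04). The other rises among the 10 largest were Mrpl19 (0.78), Mrpl21 (0.61), Mrps18a (0.59), Mrps25 (0.56) and Mrpl13 (0.55).

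The largest falls on the log2 scale were in Mrpl41 and Mrpl23. Mrpl41 encodes a large-subunit protein and lies on chromosome 2 (24974117 to 24975098, minus strand). It was 26.2, 34.2 and 39.9 TPM in the labelled knockout and 67.5, 70.7 and 72.5 TPM after re-expression, a change of -1.07 (SE 0.14, adjusted p = 6.16e-04). Mrpl23, at the exit of the peptide tunnel, lies on chromosome 7 (142532686 to 142540747, plus strand) and was 6.69, 5.38 and 10.9 against 19.4, 16.1 and 14.5 TPM (-1.07, SE 0.23, adjusted p = 0.00577). Mrpl23 is also the least abundant of the 78.

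Mrpl24 was 55.2, 49.6 and 53.4 against 90.6, 88.3 and 84.8 TPM (-0.73, SE 0.06, adjusted p = 6.98e-05), and Mrpl27 was 49.5, 53.2 and 64.2 against 92.9, 93.1 and 93.8 TPM (-0.74, SE 0.10, adjusted p = 5.24e-04). Both encode large-subunit proteins. Of the 10 largest falls, 6 were smaller than these: Mrps24 (-0.57), Mrpl50 (-0.54), Mrpl14 (-0.52), Mrps6 (-0.51), Mrps21 (-0.51) and Mrpl57 (-0.50). Mrpl14 and Mrps21 lost their call without replicate 2 of the labelled knockout, and without replicate 1 or 3 of the re-expressing cells.

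**Figure D2:**
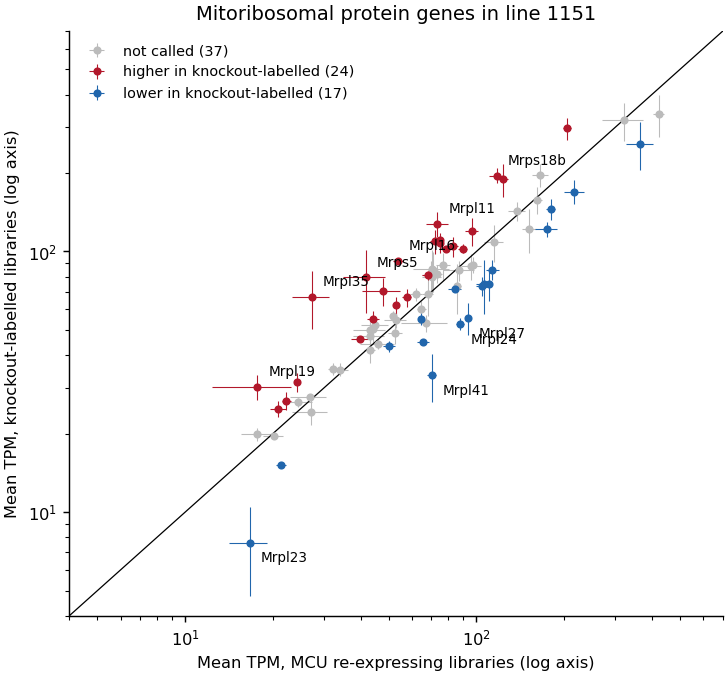
Mean TPM (log axes, n = 3, error bars SD) of each of the 78 mitoribosomal genes in labelled knockout 1151 cells (vertical) against re-expressing 1151 cells (horizontal). Called genes lie on both sides of the line of equal level: 24 above it and 17 below it.

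On some chromosomes the mitoribosomal genes and their neighbours moved together in 1151. On chromosome 19 all 5 mitoribosomal genes (Mrpl11, Mrpl16, Mrpl21, Mrpl43 and Mrpl49) rose, though only 3 were positive and 1 was called higher once each library was centred per chromosome. Among 411 other genes there, 67.2% rose, with a median log2 change of 0.51. Chromosome 15 holds 1 of the 78, Mrpl13, which rose, and the median of its 451 other genes was 0.45. On chromosome 10, with a median of 0.34, Mrpl42 rose (0.53) and Mrpl54 did not pass (-0.03). On chromosome 17, 5 of 8 rose and 1 fell beside a median of 0.31 over 571 other genes, and on chromosome 6, 3 of 7 rose beside a median of 0.27. On chromosome 8, where the other 624 genes had a median of -0.28, Mrps31 fell and Mrpl34 did not pass. Chromosome 11 holds the most, 11, and with a median of -0.01 for its other genes 1 rose and 4 fell. On chromosome 14 the 3 mitoribosomal genes had a median of -0.34 and 2 of them, Mrpl57 and Mrps16, fell, while the median of the other genes was -0.02.

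Across the 78 genes the change in 1151 and the median of the other genes on the same chromosome had a Pearson correlation of 0.53 and a Spearman correlation of 0.49, and 47 had its sign. Genes on 1 chromosome share that median and are not independent, so the value is a description. With each library's values centred per chromosome, 15 mitoribosomal genes were higher and 22 lower. Of the 41 called before centring, 26 kept call and sign, 11 of them higher and 15 lower. Mrpl35, Mrps5, Mrpl16, Mrps18b, Mrpl41, Mrpl23, Mrpl24 and Mrpl27 were among the 26. Mrpl11, Mrpl13, Mrpl19, Mrpl21, Mrpl43 and Mrps25 were among those that lost their call. Mrpl49 turned from higher to lower, with a centred change of -0.26 (limma, adjusted p = 0.0227). Copy number was not measured, and its part in these differences was not tested.

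**Figure D3:**
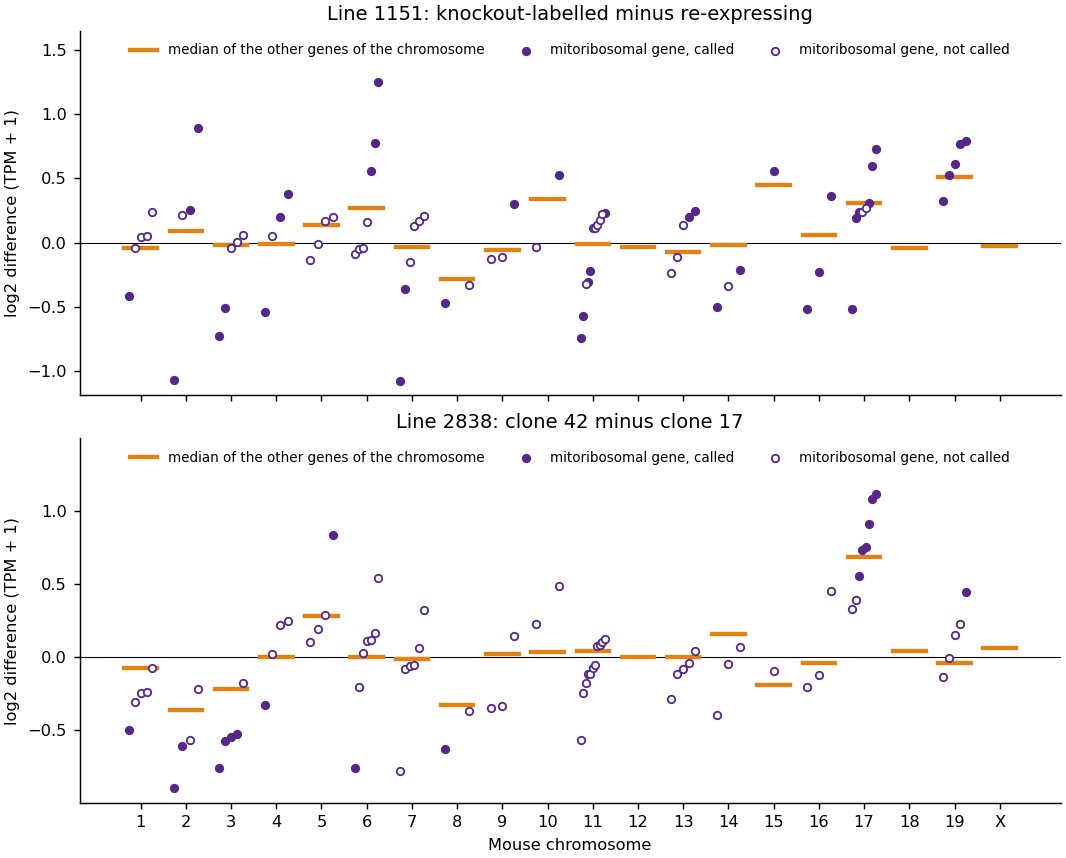
Log2 change of each mitoribosomal gene by chromosome (points), with the median of the other genes on that chromosome (short lines), for 1151 and for clone 42 minus clone 17 of line 2838. All 5 genes of chromosome 19 are positive in 1151 and all 8 genes of chromosome 17 between the clones; with centring per chromosome 3 of the 5 and 3 of the 8 are positive.

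Other genes of the system in 1151 also moved in both directions, where 34.0% of all genes were higher and 27.0% lower. Of 5 mitoribosomal subunits whose symbols fall outside the naming rule, Ptcd3, a small-subunit protein, rose from 46.3 ± 1.16 to 91.3 ± 5.10 TPM (0.96, SE 0.06, adjusted p = 1.91e-05) and Chchd1 fell (-0.34, adjusted p = 0.00823). Dap3 (0.16), Aurkaip1 (-0.16) and Gadd45gip1 (-0.18) did not pass. Among 33 genes of mitochondrial RNA processing and decay 14 rose and 5 fell. Lrpprc, which stabilises mitochondrial messages, rose by 1.49 and Trnt1, which adds the CCA end of tRNAs, by 0.82; Mrm1, an rRNA methyltransferase, changed by -1.33 and Hsd17b10, a subunit of mitochondrial RNase P, by -0.95.

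Of 25 genes of mitochondrial transcription and DNA maintenance 9 rose and 4 fell. Pprc1, a coactivator of the PGC-1 family, rose by 1.34 and Twnk, the mitochondrial DNA helicase, by 1.10, while the nuclear receptor Esrra changed by -1.02 and the coactivator Ppargc1a by -0.73. Of 20 mitoribosome assembly factors 3 rose and 5 fell, with Noa1 at 0.56 and Mtg1 at -1.06, Mpv17l2 at -0.98 and Ddx28 at -0.71. Of 14 translation factors 4 rose and 2 fell: Gfm1, an elongation factor, was at 0.58, Mtrf1l, a release factor, at 0.61, Mtres1 at 0.43 and the initiation factor Mtif2 at -0.80.

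Of 20 genes for charging mitochondrial tRNAs 3 rose and 6 fell, with Qrsl1 at 1.00, Aars2 at 0.60, Lars2 at -0.84 and Cars2 at -0.57. Among 16 proteins often read as a measure of mitochondrial content 9 rose and 4 fell with a median of 0.43, led by Immt (0.75), Lonp1 (0.73), Tomm22 (0.72) and Hspd1 (0.68). Of 78 cytosolic ribosomal protein genes tested, 10 rose and 15 fell with a median of -0.05. Many genes named from these lists moved with their chromosome. Ptcd3, Trnt1 and Immt lie on chromosome 6, Lrpprc and Lonp1 on 17, Tomm22 on 15 and Pprc1 and Twnk on 19. Mpv17l2, Ddx28 and Cars2, which fell, lie on 8. Esrra fell although it lies on 19. Calls after centring per chromosome are not given for these lists.

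Of the 13 mitochondrial messages, only mt-Nd2 passed in 1151, where 61.0% of all genes did. This complex I message (chrM, 3914 to 4951) was 4945, 4243 and 3755 TPM in the labelled knockout and 2855, 3211 and 2980 TPM after re-expression. The groups did not overlap, and the log2 change was 0.51 (SE 0.12, adjusted p = 0.00833). The next, mt-Nd6, read 3073, 2219 and 1774 against 1365, 1685 and 1774 TPM, with groups that met at 1774 (0.52, adjusted p = 0.0622). The median of the 13 changes was 0.10, beside 0.05 for all genes.

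The summed level of the 13 messages was 142984, 126606 and 106904 TPM in the labelled knockout and 115335, 128159 and 116463 TPM after re-expression. These ranges overlapped, with means of 125498 ± 18066 and 119986 ± 7101 TPM. Replicate 3 was the lowest of the labelled knockout, and without it 5 messages passed, beside 62.4% of all genes, all higher: mt-Atp8 (0.36), mt-Nd1 (0.40), mt-Nd2 (0.60), mt-Nd5 (0.40) and mt-Nd6 (0.71). After quantile normalization mt-Co2 passed besides mt-Nd2, at 0.31 (adjusted p = 0.0469).

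In 1151 mt-Atp8 was the highest of the 13 per length, at 31745, 28942 and 19359 TPM in the labelled knockout, and mt-Nd5 among the lowest, at 2478, 2068 and 1806 TPM. The messages mt-Atp8 and mt-Atp6 lie on 1 transcript and overlap (chrM, 7766 to 7969 and 7927 to 8607), as do mt-Nd4l and mt-Nd4, and short genes are the more sensitive to how shared reads are assigned. The ends of mt-Nd5 and mt-Nd6 also overlap, on opposite strands, and whether the counting used strand is not given in the sources used here. Values of these overlapping genes are therefore uncertain. The 2 mitochondrial ribosomal RNAs were not analysed here.

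**Figure D4:**
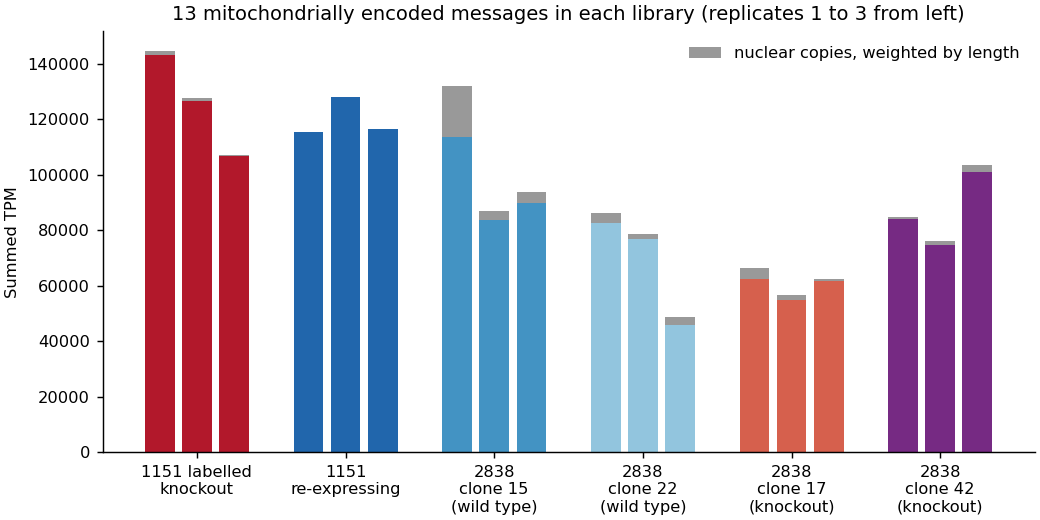
Summed TPM of the 13 mitochondrial messages in each library (coloured bars), with the nuclear copies, weighted by length, stacked in grey. Without the copies the 3 libraries of clone 17 lie between 54942 and 62315 TPM, under all 3 of clone 42, and clone 22 replicate 3 is the lowest of all at 45818 TPM.

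In line 2838 none of the 91 genes passed a test of labelled knockout against wild-type clones. With 1 mean per clone, 2 against 2, limma called 0 of 91, and 1 of the 91 had an unadjusted p under 0.05; 0.0763% of all 11795 genes passed. Asking instead for an adjusted p under 0.05 with 1 sign in all 4 pairs of a knockout and a wild-type clone also gave 0 of 91, with 1.01% of all genes past that rule. In 1 of the 78 mitoribosomal genes, Mrpl16, the 6 knockout libraries lay wholly above the 6 wild-type libraries. It read 75.3, 69.9 and 67.8 TPM in clone 17 and 75.6, 91.2 and 83.7 TPM in clone 42, against 48.6, 59.8 and 63.7 TPM in clone 15 and 66.5, 67.2 and 65.9 TPM in clone 22. The clone-mean change was 0.31 (SE 0.21, adjusted p = 0.999 by limma). Mrpl16 was picked out by this separation, and the share of all genes with it is not given here.

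Clone 22 replicate 3 bears on the all-pairs count. Without it 4 genes passed, Mrpl36, Mrpl52, Mrps15 and Mrps24, each higher in the knockout clones. Of all genes 1.48% passed as higher and 2.41% as lower. Without clone 15 replicate 1 as well they were 7, all higher, with Mrpl27, Mrpl43 and Mrps36 added. Beside them 2.14% of all genes were higher and 3.35% lower. The rise in calls was thus seen over all genes too, in both directions, while the members called were all higher. Mrpl52 read 500, 523 and 495 TPM in clone 15, 465 and 503 TPM in replicates 1 and 2 of clone 22, 605, 568 and 601 TPM in clone 17 and 602, 631 and 631 TPM in clone 42. In clone 22 replicate 3 it read 768 TPM, above every other library. Without clone 22 altogether 13 genes passed, all higher, against 1 clone only, beside 5.73% of all genes higher and 5.45% lower.

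Clone means moved with the clone left out. Without clone 17 Mrpl14 passed (0.90, adjusted p = 0.0131 by limma), and without clone 42 mt-Nd6 did (-1.17, adjusted p = 2.82e-04), while 3.42% and 2.3% of all genes passed in these fits. Each such fit leaves 1 labelled knockout clone, whose spread is assumed to be like that of the others. Mrpl14 lies on chromosome 17, whose other genes had medians of 0.32 and 0.41 in clone 42 against clones 15 and 22. The difference between the 1151 and 2838 effects, tested on 6 group means, passed in 0 of 91 genes with 1.1% of 12458 genes past it. Its spread is that of the 2838 clones only, and it sets re-expression in 1151 against a contrast of clones in 2838. By this test 7 of the 78 mitoribosomal genes had an unadjusted p under 0.05. Without a filter on low values Mrps23 passed (-1.08, adjusted p = 0.0458), beside 5.88% of all genes.

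Pair by pair, the mitoribosomal calls depended on which clones were compared. The 4 pairs share their wild-type or knockout libraries, so they are not independent. Clone 17 minus clone 15 gave 4 higher and 1 lower, where 5.18% of all genes were higher and 5.53% lower: Mrpl57 (0.85), Mrpl46 (0.54), Mrps31 (0.48) and Mrpl37 (0.32) were higher and Mrpl18 (-0.55) lower. Clone 42 minus clone 15 gave 10 higher and 3 lower, beside 6.07% and 6.22%. Mrpl14 (1.15), Mrpl28 (0.85) and Mrpl19 (0.78) led the higher ones, and Mrpl24 (-0.57), Mrpl4 (-0.43) and Mrps22 (-0.41) were lower. Of the 10 higher, 6 lie on chromosome 17, where 21.2% of the other genes were higher. Clone 17 minus clone 22 gave 0 higher and 3 lower, beside 3.79% and 2.7%, and all 3 (Mrpl18 at -0.88, Mrpl28 at -0.71 and Mrps18a at -0.63) lie on chromosome 17. Clone 42 minus clone 22 gave 0 higher and 4 lower, beside 5.78% and 4.54%: Mrps35 (-0.79), Mrpl24 (-0.66), Mrps28 (-0.59) and Mrpl4 (-0.55). With 1 library left out these 4 counts, both directions together, ran from 0 to 30, 4 to 39, 1 to 10 and 1 to 22. Each was highest without clone 22 replicate 3, where the shares of all genes called in the 4 pairs were 32.8%, 35.2%, 20.4% and 27.1%, and the lowest were without a library of the pair compared.

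Levels against clone 22 sit on a base that moves with its replicate 3 and with scaling. The median change over all genes was 0.15 for clone 17 minus clone 22. It was 0.00 after median-of-ratios scaling and -0.04 without clone 22 replicate 3. The mitoribosomal medians on the first scale were 0.02 against clone 22 and 0.19 against clone 15 for clone 17. For clone 42 they were -0.01 and 0.19. After median-of-ratios scaling the mitoribosomal medians against clone 22 were -0.15 for clone 17 and -0.17 for clone 42. Without clone 22 replicate 3 both were 0.09. Between the wild-type clones, clone 22 minus clone 15, limma called 0 of 91 genes with 1.92% of all genes past the threshold; 18 mitoribosomal genes and 8 messages had an unadjusted p under 0.05. The mitoribosomal median of clone 22 minus clone 15 was 0.20, with 69 of 78 positive, beside -0.16 for all genes. Without clone 22 replicate 3 it was 0.10, with 59 positive, beside 0.06 for all genes. In that fit Mrpl12 (0.32), Mrpl40 (0.41), Mrps14 (0.31) and Mrps18a (0.45) passed, beside 4.22% of all genes higher and 2.64% lower.

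The clones labelled knockout also differed from each other. In clone 42 minus clone 17, 8 mitoribosomal genes were higher and 10 lower; of all genes 8.23% were higher and 8.99% lower. The higher ones were Mrpl18, Mrpl28, Mrpl14, Mrpl33, Mrps34, Mrpl2, Mrps18a and Mrpl49, and the lower ones Mrps5, Mrps35, Mrpl47, Mrps31, Mrps2, Mrps28, Mrpl9, Mrpl24, Mrps9 and Mrpl37. The median over the 78 was -0.05.

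Mrpl18, a large-subunit protein, was 45.8, 40.1 and 44.3 TPM in clone 17 and 91.0, 96.6 and 97.3 TPM in clone 42. The wild-type clones lay between, at 68.5, 62.2 and 61.4 TPM (clone 15) and 85.0, 68.1 and 89.9 TPM (clone 22). Clone 42 minus clone 17 was 1.11 on the log2 scale (adjusted p = 1.28e-04, limma), the largest difference between these clones among the 78.

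Mrpl28 was 64.8, 68.4 and 77.4 TPM in clone 17 and 145, 150 and 154 TPM in clone 42 (1.08, adjusted p = 0.00171). Its wild-type values were 69.6, 88.8 and 90.7 TPM in clone 15 and 97.2, 100 and 155 TPM in clone 22, of which the last is replicate 3. That library alone made clone 22 overlap clone 42. Mrpl14 was 91.5, 96.8 and 104 TPM in clone 17 and 178, 178 and 196 TPM in clone 42 (0.91, adjusted p = 0.0072).

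Mrpl33, a short large-subunit protein on chromosome 5, was 112, 125 and 131 TPM in clone 17 and 204, 213 and 244 TPM in clone 42 (0.84, adjusted p = 0.00557). Mrps5 went the other way, at 76.1, 91.8 and 65.1 TPM in clone 17 and 50.4, 43.7 and 31 TPM in clone 42 (-0.90, adjusted p = 0.0162). In 1151 Mrps5 was among the rises of the labelled knockout.

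The clone difference followed chromosomes too. All 8 mitoribosomal genes of chromosome 17 (Mrpl2, Mrpl14, Mrpl18, Mrpl28, Mrps10, Mrps18a, Mrps18b and Mrps34) were positive in clone 42 minus clone 17, 6 of them called, with a median of 0.74; after centring per chromosome 3 of the 8 were positive. The other 584 genes of that chromosome had a median of 0.68; 49.1% of them were higher and 1.54% lower. Against the wild-type clones the medians of those other genes had opposite signs for the 2 knockout clones: -0.39 and -0.31 for clone 17 against clones 15 and 22, and 0.32 and 0.41 for clone 42. Between the wild-type clones it was -0.09. Chromosome 2 (median -0.36), 8 (-0.33) and 3 (-0.22) lay on the lower side, and there Mrps5, Mrps2, Mrps31, Mrps28, Mrpl47, Mrpl9 and Mrpl24 were lower in clone 42.

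Leaving out 1 library of these clones took the 18 calls to between 7 (without replicate 1 or 2 of clone 17) and 12 (without replicate 2 of clone 42), beside 9.88% to 10.8% of all genes. Without clone 22 replicate 3, which belongs to neither clone but enters the pooled spread, they were 33 of 78, and 41.5% of all genes were called.

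Over the 78 genes the clone difference and the chromosome median of other genes had a Pearson correlation of 0.75 and a Spearman correlation of 0.59, as a description of genes that are not independent. Centring each library per chromosome left 1 call of the 18, Mrpl49, beside 14.9% of all genes. The genes that lost their call differed in size: Mrps35 was -0.74 (SE 0.33) after centring and Mrpl14 0.14 (SE 0.24). Centring without the 2 libraries that stood apart gave 10 higher and 17 lower, beside 21.6% and 20.8% of all genes. Of the 18, Mrpl18, Mrpl28, Mrpl33, Mrpl49, Mrps35, Mrpl47, Mrps31, Mrps2, Mrps28, Mrpl9, Mrps9 and Mrpl37 kept call and sign there. Mrpl14, Mrpl2, Mrps34, Mrps18a, Mrps5 and Mrpl24 did not pass. Without those 2 libraries and with no centring the counts were 18 and 22, beside 23.9% and 25.9%. Copy number was not measured here either, and its part was not tested.

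Other genes of the system were also compared between these clones, where 8.23% of all genes were higher and 8.99% lower. Of the 5 further subunits Gadd45gip1, a large-subunit protein, was lower in clone 42 (-0.66, adjusted p = 0.0283). Of 24 transcription and maintenance genes Polg, the DNA polymerase, was higher (0.89) and Top1mt, the topoisomerase, lower (-0.98). Mto1, a tRNA-modifying enzyme, was the 1 call among 33 RNA processing genes (0.75). Mtg1 (-0.68) and Ddx28 (-0.67) were lower among 20 assembly factors and 0 of 14 translation factors passed. Aars2 (0.97) and Vars2 (0.91) were higher and 3 of 20 tRNA-charging genes lower, among them Ears2 at -0.51. Of the content proteins Immt was higher (0.42) and Timm44 lower (-0.56). Of 77 cytosolic ribosomal protein genes 2 were higher and 7 lower.

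The mitochondrial messages were low in clone 17 of line 2838. Their summed level was 62315, 54942 and 61695 TPM in clone 17 and 84191, 74821 and 101143 TPM in clone 42. The wild-type libraries read 113519, 83607 and 89617 TPM in clone 15 and 82568, 76764 and 45818 TPM in clone 22. As a share of all TPM, clone 17 was at 5.97% ± 0.41 and clone 42 at 8.68% ± 1.34 (SD, n = 3). Clone 17 lay under clones 15 and 42 without overlap, and under clone 22 except for its replicate 3.

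In clone 42 minus clone 17 all 13 messages were positive (12 after quantile normalization), with a median of 0.64, and 6 passed as higher, beside 8.23% of all genes. The largest difference was in mt-Nd6, the 1 message of the other strand (chrM, 13552 to 14070, minus), at 731, 608 and 685 TPM in clone 17 and 1609, 1366 and 2011 TPM in clone 42 (1.29, SE 0.25, adjusted p = 0.00549). The other complex I messages called were mt-Nd5 (1.02, adjusted p = 0.0359), mt-Nd2 (0.92, 0.0127), mt-Nd1 (0.86, 0.00765) and mt-Nd4 (0.83, 0.0193). The complex IV message mt-Co3 passed at 0.56 (adjusted p = 0.0482) and, with its nuclear copy added, did not (0.48, adjusted p = 0.0798). Complex III mt-Cytb (0.19), mt-Nd3 (0.26), mt-Atp6 (0.30), mt-Atp8 (0.39), mt-Nd4l (0.81), mt-Co1 (0.64) and mt-Co2 (0.63) did not pass.

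By complex, 5 of the 7 complex I messages passed, 1 of 3 of complex IV and 0 of 2 of complex V. The messages of 1 strand are cut from common transcripts, so their values are not independent of each other. Leaving out 1 library of either clone left 2, 3 or 5 of the 6 called: 3, 2 and 3 without replicate 1, 2 or 3 of clone 17, and 3, 5 and 2 without those of clone 42. The calls of mt-Nd6 and mt-Nd1 held in each of these fits.

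Clone 17 minus clone 15 gave 5 lower messages, beside 5.53% of all genes: mt-Nd6 (-1.45, adjusted p = 0.00423), mt-Nd4 (-0.92, 0.0173), mt-Nd2 (-0.87, 0.024), mt-Co3 (-0.77, 0.0178) and mt-Nd1 (-0.74, 0.0231). With nuclear copies added 7 were lower by limma, with mt-Co2 (-0.57, adjusted p = 0.0413) and mt-Nd5 (-1.02, adjusted p = 0.04998) besides. No copy was added to mt-Nd5, and that fit tested 11790 genes in place of 11795. Leaving out clone 15 replicate 1, or replicate 1 or 2 of clone 17, left 1 of the 5, without clone 17 replicate 3 left 2 and without clone 15 replicate 3 left 3. Clone 17 minus clone 22 gave 0, with mt-Nd6 at -0.89 (adjusted p = 0.0634), and clone 42 gave 0 against either wild-type clone.

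Clone 22 replicate 3 also touches these counts. There mt-Nd4l was 864 TPM, against 5937 and 5770 TPM in replicates 1 and 2. Without this library, clone 17 minus clone 15 gave 10 lower messages, clone 17 minus clone 22 gave 5, and clone 42 minus clone 17 gave 8 higher. Of all genes 15.8%, 12.4% and 20.1% were called in those directions, more than with the library kept. In the same fit mt-Cytb was lower in clone 42 than in clone 15 (-0.31, adjusted p = 0.0451 by limma). Without clone 15 replicate 1 as well the counts were 10, 9 and 10, beside 17.5%, 17.7% and 23.9% of all genes. By limma mt-Cytb then did not pass in clone 42 minus clone 15 (-0.26, adjusted p = 0.0851). There mt-Nd6 was higher in clone 42 than in clone 22 (0.45, adjusted p = 0.0284), beside 13.7% of all genes higher. In clone 15 replicate 1 the ratio of mt-Atp8 to mt-Atp6 was 8.19, against 3.69 and 4.11 in replicates 2 and 3; with the nuclear copy of mt-Atp6 added it was 4.12, beside 3.53 and 3.94.

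**Figure D5:**
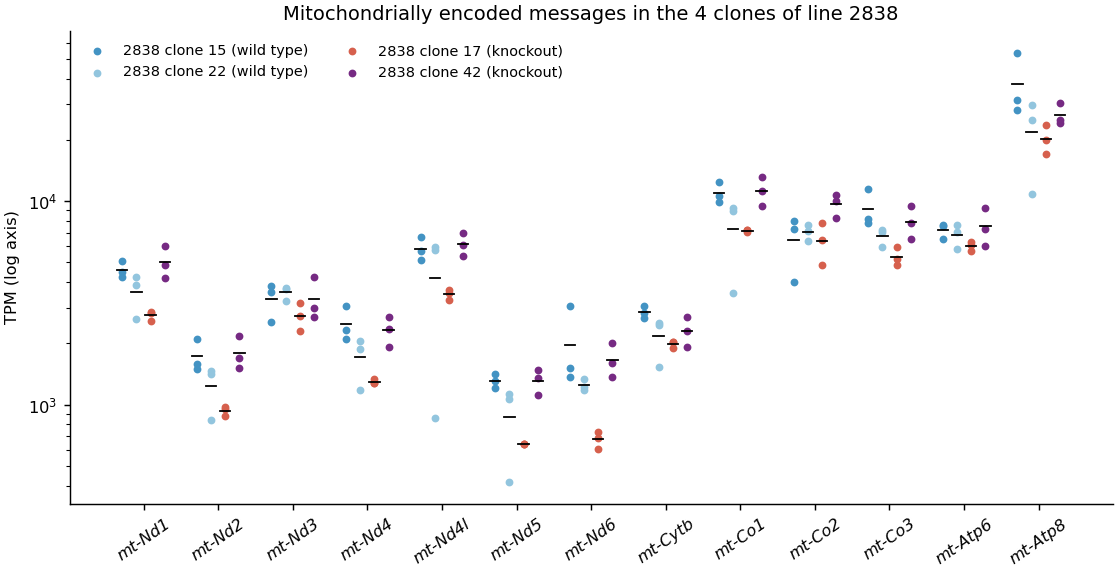
TPM (log axis) of each of the 13 mitochondrial messages in the 12 libraries of line 2838, by clone, with a dash at each clone mean. Clone 17 is lowest for mt-Nd6 (608 to 731 TPM), and clone 22 replicate 3 stands alone for mt-Nd4l at 864 TPM.

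The messages of the mitochondrial genome start from a common control region, but each mitoribosomal gene has a nuclear promoter of its own. RefSeq promoter windows (GRCm38.p6; 250 bases before to 50 after each start) were matched for 69 of the 78 genes. The letters CCGGAAG on either strand, the core bound by ETS factors such as GABP, were in 25 of 69 windows (36.2%), against 9.12% of all 27025 windows and 19.8% of the windows of 9066 genes tested in 1151. The core GCATGCGC, of the NRF1 type, was in 8 (11.6%, against 2.80% and 5.89%), and AAGATGGC, of the YY1 type, in 12 (17.4%, against 2.88% and 5.13%). These are matches of letters, not sites shown to be bound.

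The 100 bases before the start of 4 genes follow, with CCGGAAG or GCATGCGC in capitals, on either strand. They are shown because the same core stands before genes that moved in opposite directions in 1151. Mrpl27 fell there (-0.74), Mrps18a (0.59) and Mrpl43 (0.52) rose, and Mrpl22, which holds both cores, is described without a direction (0.14). After centring per chromosome Mrpl27 (-0.79) and Mrps18a (0.34) kept their calls, while Mrpl43 lost its call (-0.07).
Mrpl27, chr11:94653691-94653790, plus strand: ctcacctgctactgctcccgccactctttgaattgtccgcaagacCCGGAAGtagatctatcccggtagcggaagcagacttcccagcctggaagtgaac
Mrps18a, chr17:46110904-46111003, plus strand: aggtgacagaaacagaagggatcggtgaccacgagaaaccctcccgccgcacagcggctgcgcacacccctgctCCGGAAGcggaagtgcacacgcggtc
Mrpl43, chr19:45006443-45006542, minus strand: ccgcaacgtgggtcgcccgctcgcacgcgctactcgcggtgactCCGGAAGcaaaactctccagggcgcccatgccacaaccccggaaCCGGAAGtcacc
Mrpl22, chr11:58171564-58171663, plus strand: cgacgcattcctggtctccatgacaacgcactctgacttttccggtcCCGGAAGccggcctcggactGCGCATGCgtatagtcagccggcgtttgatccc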

How the data were processed

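The authors deposited 1 table of TPM per gene for 18 libraries of polyA RNA; Salmon, DESeq2 and mm10 are named, without roles or versions, per the submitters' processing notes. TPM keeps no read depth, so the depth of a library is unknown here and no counting interval is given. Genes that reached 1 TPM in 3 or more of the libraries fitted were tested with limma 3.58.1 (trend) in R 4.3.3 on log2(TPM + 1), with Benjamini-Hochberg adjustment over all genes tested and a call at an adjusted p under 0.05. A fold change on this scale understates that of low genes. The method was also run on simulated data, in which the spread between clones was a set value and not estimated. Its outcome is not given here, and it is no support for the clone-mean results. Line 1151 was fitted on 6 libraries. Line 2838 was fitted on 4 clone means and, for clone pairs, on 12 libraries with a pooled spread. The difference of effects was fitted on 6 group means.

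The members, gene lists and alternatives were chosen with earlier results of these data known. Genes named are the 13 messages, the 10 largest rises and 10 largest falls in 1151 with groups that do not overlap, the 5 largest differences between clones of a label, the 3 highest and 3 lowest levels, all further subunits, and up to 4 called genes per list; 1 gene that this rule names is not reported here. Other called genes in 2838, and Mrpl22, Mrpl42, Mrpl43, Mrpl49, Mrpl54 and Mrps16, were named after their values were seen, as were the 2 libraries that stand apart. Gene positions are those of the GENCODE annotation of mm10, and promoters are from RefSeq. Nuclear copies were found by shared 31-base words of the transcripts, with at least 90% of the words of a copy in the message. Alternatives were a pseudocount of 0.1, no filter or a mean of 5 TPM, other scalings, a minimum log2 change of 0.5, centring per chromosome, adding nuclear copies, a replicate block, and leaving out libraries or clones.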

Additional observations from a re-analysis of the deposited data

How the results depend on the processing

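Of the results followed across alternatives, 0 took a call of the other sign; Mrpl49 in 1151, given above, is the exception outside them. In 1151 the 24 higher mitoribosomal genes were 12 with a minimum log2 change of 0.5 and 15 when centred per chromosome. With 1 library left out they were 17 to 26. The 17 lower ones were 10 with that minimum and 12 to 21 with 1 library left out. With that minimum 20.9% of all genes were higher and 16.5% lower. The 1 message called was 2 after quantile normalization and 1 to 5 with 1 library left out. In 2838 clone means gave 1 call of the 91 without clone 17 and 1 without clone 42. The all-pairs count of 0 was 0 to 4 with 1 library left out, 1 without clone 15, 13 without clone 22, 1 without clone 17, 7 without the 2 libraries that stand apart and 4 when that was combined with centring. The difference of effects gave 1 call with no filter. Between the wild-type clones there was 1 call with no filter, 0 to 4 with 1 library left out and 5 without the 2 libraries. Clone 42 minus clone 17 gave 18 mitoribosomal calls, which were 8 after median-of-ratios scaling, 1 when centred, 32 without clone 22, 40 without the 2 libraries and 7 to 33 with 1 library left out; its 6 messages were 10 without the 2 libraries, with or without centring, and 2 to 8 with 1 library left out. Each count of a clone pair uses a spread pooled over all clones in the fit, so leaving out a library changes it in pairs that do not hold that library. Same-numbered libraries had correlations of their deviations of -0.03, -0.12 and -0.15 in 1151 and of -0.15 to 0.19 over 18 pairs in 2838 (median 0.00; -0.19 to 0.14 over 36 pairs of unlike number), so not every pair passed 0.1 and replicate numbers were not treated as pairs. With the replicate block the 1151 counts were 21 higher and 17 lower and 1 message, clone 42 minus clone 17 gave 18 and 5, and clone 17 minus clone 15 gave 2 mitoribosomal calls in place of 5. Of 356 values of the 21 genes named in 1151, 343 kept the call and 13 lost it. For clone 17 minus clone 15, 107 of 130 were kept, and for clone 42 minus clone 17, 247 of 291. The cause of these changes was not tested. With depth unknown, no limit on undetected differences can be given.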
